A study of Mus musculus with 69 samples.

Results

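The 10 genes described here are 5 ligands of the epidermal growth factor (EGF) receptor (Hbegf, Areg, Ereg, Tgfa and Btc), the 4 receptors Egfr, Erbb2, Erbb3 and Erbb4, and Errfi1, which encodes an inhibitor of these receptors. They were taken by name from the 24411 genes of the count table, with earlier results of these data known. All 10 were among the 21175 genes tested. In males, volume depletion raised Hbegf, Areg and Errfi1 in the pulldown RNA of both Cre domains. Ereg, at a few counts per library, was called higher in both as well, but lost the call in 5 of 11 alternative analyses in the Atp6v1b1Cre domain. After ischemia no member was called higher in the main analysis. In alternative analyses of the Hoxb7Cre domain, Hbegf was called higher in 2 of 10, among them that of 1 library series, and Erbb4 in 1. Again in males, Btc, Tgfa and Erbb2 fell after volume depletion in the Hoxb7Cre domain, and Egfr, Erbb3 and Errfi1 fell after ischemia in the Atp6v1b1Cre domain. The calls on these falls after ischemia all ended when a certain ischemic library was left out. In Hoxb7Cre females no member was called after volume depletion, against 0.0992% of all genes. The responses there of Btc, Tgfa, Erbb2, Hbegf and Areg were called different between the sexes, against 10.8% of all genes. Most female Hoxb7Cre controls are of other library series than the treated libraries. Series and control group therefore cannot be told apart for these differences.

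The ligands of this family are made as membrane proteins, and metalloproteases cut them free. A bound receptor pairs with another of the family and phosphorylates it, and adaptors then pass the signal to Ras and the MAP kinases. Errfi1 (also called Mig6) binds the active kinase domain, blocks it and promotes uptake of the receptor, and it is itself induced by receptor signalling. In the kidney the distal nephron makes EGF, and HB-EGF, the product of Hbegf, is known as a ligand that appears in injured tubules. Erbb2 has no known ligand of its own and works as a partner. Erbb3 binds neuregulins and has a weak kinase, and Erbb4 binds neuregulins as well as betacellulin (Btc), epiregulin (Ereg) and HB-EGF.

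All mice carried uracil phosphoribosyltransferase (Uprt) in the Rosa26 locus behind a stop cassette and 1 of 2 Cre drivers. 4-Thiouracil was given to all at 430 mg/kg and kidneys were removed 4 hours later, so that RNA made in Cre-positive cells in that time could be biotinylated and pulled down. Hoxb7Cre is active in the collecting duct, and Atp6v1b1Cre (spelled Atp6b1v1 in the sample labels) in intercalated cells and in cells with features of both collecting duct types. Control mice were uninjured, ischemic mice received the label 24 hours after both renal pedicles had been clamped for 10 minutes, and volume-depleted mice after 72 hours without water and food. In mice of 5.5 months, the Hoxb7Cre pulldowns comprised 4 control, 4 ischemic and 3 volume-depleted libraries of males, and 4, 3 and 4 of females. The Atp6v1b1Cre pulldowns comprised 4, 3 and 4 of males, and 4, 3 and 3 of females. A further 2 Hoxb7Cre female and 3 Atp6v1b1Cre male control pulldowns, of mice of 3 months, entered the comparison of pools only. So did 21 libraries of total kidney RNA of control mice of both genotypes, 11 of males and 10 of females. Of these, 3 of males and 2 of females were of mice of 3 months and the rest of 5.5 months. For each treatment the study gives as many mice as there are male libraries here. For the females and the total RNA no source used here says whether libraries came from separate mice, so their p-values measure the spread between libraries.

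Libraries held from 12618062 to 30305464 counts, and the sex-linked genes matched the labelled sex in 69 of 69. Marker genes bore on the labelled cell types in part. The 5 principal cell markers (Aqp2, Aqp3, Aqp4, Scnn1g and Avpr2) summed to 1045 to 3322 CPM (counts scaled by library size) in the 10 Hoxb7Cre control pulldowns against 607.1 to 1102 in total kidney RNA, whereas in the 11 Atp6v1b1Cre control pulldowns they summed to 498.8 to 937.5. The 5 intercalated cell markers (Foxi1, Atp6v1g3, Atp6v0d2, Slc4a1 and Slc26a4) summed to 507.9 to 1212 CPM in the Atp6v1b1Cre and 385.5 to 865.9 in the Hoxb7Cre control pulldowns, against 259.4 to 465 in total kidney RNA. The 5 proximal tubule markers remained in the pulldowns, at 1398 to 3819 CPM in Hoxb7Cre and 1187 to 3765 in Atp6v1b1Cre, against 7109 to 14640 in total kidney RNA. Library numbers fall into 3 runs, here called series A, B and C. All treated Hoxb7Cre libraries are in series A, but 2 of the 4 male and 3 of the 4 female Hoxb7Cre controls of 5.5 months are in B or C, so values within series A are given where they bear on a call.

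On GRCm38, Errfi1 lies on chromosome 4 from 150853919 to 150868892 (plus strand). The ligand genes Ereg (91074622 to 91093646), Areg (91139599 to 91148432, both plus strand) and Btc (91357261 to 91402994, minus strand) neighbour each other on chromosome 5. Tgfa lies on chromosome 6 from 86195223 to 86275719 (plus strand). Of the receptor genes, Egfr (16752203 to 16918158) and Erbb2 (98412470 to 98437716) lie on the plus strand of chromosome 11, Erbb3 on the minus strand of chromosome 10 from 128567523 to 128589652, and Erbb4 on the minus strand of chromosome 1 from 68032186 to 69108059. A RefSeq promoter of 300 bases, from 250 before to 50 after a start site on GRCm38.p6, was at hand for 7 of the 10 members. Errfi1 and Areg, which rose together after volume depletion, are given here 5′ to 3′ on the plus strand, at chr4:150854820-150855119 and chr5:91139349-91139648. The capitals mark TGACGTCA, the full cAMP response element, a binding site of the CREB and ATF factors.
Errfi1: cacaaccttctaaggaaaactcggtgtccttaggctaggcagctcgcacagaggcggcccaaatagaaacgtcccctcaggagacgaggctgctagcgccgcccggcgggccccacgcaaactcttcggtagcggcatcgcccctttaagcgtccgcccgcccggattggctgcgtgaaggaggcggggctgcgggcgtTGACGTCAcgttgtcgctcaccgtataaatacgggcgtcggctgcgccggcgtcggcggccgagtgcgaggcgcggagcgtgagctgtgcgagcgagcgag
Areg: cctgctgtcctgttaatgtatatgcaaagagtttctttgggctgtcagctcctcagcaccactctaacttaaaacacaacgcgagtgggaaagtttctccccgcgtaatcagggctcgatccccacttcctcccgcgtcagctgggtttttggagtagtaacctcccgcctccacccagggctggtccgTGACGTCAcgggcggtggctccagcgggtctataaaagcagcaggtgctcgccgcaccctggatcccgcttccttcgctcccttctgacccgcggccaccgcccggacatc

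The first base of the match is 51 bases before the start site in Errfi1 and 61 before it in Areg. The same 8 letters, which read alike on both strands, occur in 1.79% of all 32851 promoters of this length. They occur neither in the other Errfi1 promoter of the table nor in those of Btc, Tgfa, Egfr, Erbb2 and Erbb4. No promoter was at hand for Hbegf and Ereg, which also rose after volume depletion, nor for Erbb3. Whether the match sets apart the members that rose therefore cannot be told. TGANTCA (AP-1) and TGTTTAC (forkhead), searched on both strands and held by 7.81% and 3.65% of all promoters, matched in no promoter of the members. These matches are letters in a window, and the counts do not measure binding there.

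The levels of the members in uninjured kidneys were compared per kilobase (kb) of exon, with lengths from GENCODE vM21. Errfi1 stood far above the other members in every pool, with a median of 341 CPM per kb in total kidney RNA (161.9 to 578.1, n = 21), 240 in the Hoxb7Cre pulldown (183.2 to 510.7, n = 10) and 304 in the Atp6v1b1Cre pulldown (160.3 to 754.9, n = 11), and its range did not overlap that of the next gene. In the Hoxb7Cre pulldown Btc followed with a median of 47.4 CPM per kb, then Erbb3 with 30.1, Hbegf with 27.6, Erbb2 with 23.1 and Egfr with 18.1. Neighbours among these 5 genes differed by less than their spread. Tgfa (4.70) and Erbb4 (1.77) were lower, and Areg (0.200) and Ereg (0.0490) were close to undetected. In the Atp6v1b1Cre pulldown and in total kidney RNA the order of the 5 genes after Errfi1 was Erbb3, Hbegf, Erbb2, Egfr and Btc, with medians in the former of 33.1, 19.8, 18.4, 17.0 and 10.5 CPM per kb. Neighbours in this order, too, differed by less than their spread, except Egfr and Btc in the Atp6v1b1Cre pulldown.

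**Figure D1:**
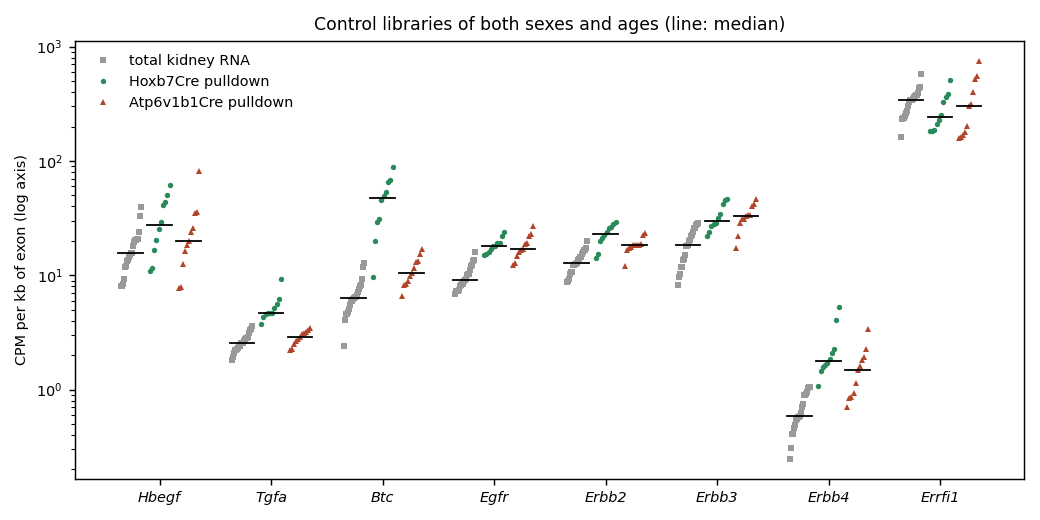
Levels of 8 members in control libraries, in CPM per kb of exon on a log axis, with 1 point per library and the median as a line, for total kidney RNA (n = 21), Hoxb7Cre pulldown (n = 10) and Atp6v1b1Cre pulldown (n = 11). Errfi1 is the highest in each pool, and Btc stands higher in the Hoxb7Cre pulldown (median 47.4) than in the Atp6v1b1Cre pulldown (median 10.5); Areg and Ereg, with counts of 0 in some libraries, are not drawn.

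The control pulldowns were compared with total kidney RNA to ask which members were enriched in the labelled RNA. The pulldown holds RNA made within 4 hours and the total holds the standing RNA of all cells, so that the cell of origin, RNA turnover and uracil content cannot be told apart in this comparison. The comparison used edgeR's quasi-likelihood test over all genes with Benjamini-Hochberg adjustment, and calls needed both an adjusted p below 0.05 and a change of 1 or more on the log2 scale, in either direction. Btc was the member most enriched in the Hoxb7Cre pulldown, at 27.8 to 257 CPM (median 136) against 6.98 to 36.9 (median 18.4) in total kidney RNA, a 7.08-fold difference (log2 fold change 2.82, standard error 0.21, adjusted p = 1.89e-16). The groups overlapped through the lowest Hoxb7Cre library. Erbb4 (log2 fold change 1.81, standard error 0.21), Areg (1.26, 0.47), Tgfa (1.07, 0.10) and Egfr (1.02, 0.09) were also higher, so that 5 of 10 members were called against 32.5% of all genes tested. None of the members was lower. Areg had from 0 to 11 counts in total kidney RNA, and among males alone its log2 fold change was 0.31 and not called.

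In the Atp6v1b1Cre pulldown 2 members were called against 27.7% of all genes, Erbb4 at 1.34 (standard error 0.21, adjusted p = 2.99e-07) and Ereg at 1.03 (standard error 0.41, adjusted p = 0.0251). Ereg had 10 or fewer counts in each library of total RNA, and its call was lost in 5 of 8 alternatives, with a log2 fold change of 0.16 at the lowest. Egfr at 0.89, Erbb3 at 0.80, Btc at 0.78, Hbegf at 0.64 and Erbb2 at 0.50 passed the adjusted p but not the fold threshold. Errfi1 was not called in either pool, at -0.13 (95% interval -0.55 to 0.29) in Hoxb7Cre and 0.06 (-0.32 to 0.45) in Atp6v1b1Cre. Over all genes the median was 0.11 in each pool. Directly compared, Btc was 4.11-fold lower in the Atp6v1b1Cre than in the Hoxb7Cre pulldown (log2 difference -2.04, standard error 0.25, adjusted p = 3.68e-08), the only member called against 4.11% of all genes, and Tgfa was at -0.88 (standard error 0.12, adjusted p = 4.15e-07). Among females alone Btc was no longer called, at a log2 difference of -1.14. Of the marker lists, 3 of 6 macrophage and 2 of 4 fibroblast and pericyte markers were called higher in the Atp6v1b1Cre pulldown. Called lower there were 4 of 5 principal cell and 3 of 4 urothelial markers. The part of these markers in the results was not tested.

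Volume depletion raised Hbegf (chromosome 18, 36504927 to 36515805, minus strand) in Hoxb7Cre males. The 4 controls were at 39.3, 26.1, 69.9 and 60.9 CPM, the 4 ischemic libraries at 87.2, 97.7, 91.8 and 64.6, and the 3 volume-depleted libraries at 377.5, 458 and 531. Each volume-depleted library stood far above the highest control and the highest ischemic library. The difference was 9.30-fold (log2 fold change 3.22, standard error 0.47, adjusted p = 1.84e-05). Errfi1, the feedback inhibitor, was at 610, 592.5, 734 and 822 CPM in controls and at 6039, 6237 and 5689 after volume depletion, with no overlap and little spread. It was 8.71-fold higher (log2 fold change 3.12, standard error 0.32, adjusted p = 3.34e-07).

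Areg, which encodes amphiregulin, and Ereg, which encodes epiregulin, rose from levels near the limit of the counts. Areg had 4, 2, 2 and 5 counts in the male Hoxb7Cre controls and 15, 37 and 36 after volume depletion (0.169, 0.0969, 0.0988 and 0.234 CPM against 0.755, 1.34 and 1.48), with a log2 fold change of 2.95 (standard error 0.56, adjusted p = 2.54e-04). Ereg had 5, 4, 2 and 2 counts in controls and 11, 17 and 11 after volume depletion (log2 fold change 1.82, standard error 0.57, adjusted p = 0.0150). Neither overlapped, but both remained far below Hbegf, and the size of their changes rests on a few counts. Together 4 members rose, against 9.61% of all genes called higher, and 3 fell, against 6.81% called lower.

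Btc led the members that fell. Its level was 187, 257, 194 and 155 CPM in the male Hoxb7Cre controls and 64.1, 29.4 and 24.9 after volume depletion, a 5.00-fold decrease (log2 fold change -2.32, standard error 0.31, adjusted p = 5.35e-06). Tgfa, which encodes TGF-α, was at 23.3, 42.2, 28.3 and 25.5 CPM against 14.9, 13.1 and 12.6 (log2 fold change -1.14, standard error 0.18, adjusted p = 4.05e-05). Erbb2 was at 147, 133, 112 and 119 CPM against 58.8, 65.6 and 53.3 (log2 fold change -1.11, standard error 0.18, adjusted p = 4.34e-05). For none of these 3 genes did the groups overlap, but the share of all genes without overlap was not counted. Erbb3 also stood lower in each library, at 102 to 140 CPM against 189 to 282, with a log2 fold change of -0.98 (standard error 0.27, adjusted p = 0.00711) that missed the fold threshold. Egfr (-0.12, 95% interval -0.60 to 0.37) and Erbb4 (-0.07, -0.74 to 0.59) were not called. In all, 7 of 10 members were called, against 16.4% of all genes tested.

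Principal cell markers were also lower in the male Hoxb7Cre libraries, after both injuries. Their sum was 2608 to 3322 CPM in the male Hoxb7Cre controls, 936 to 1176 after ischemia and 1050 to 1158 after volume depletion, with 3 of 5 markers called lower after ischemia (median log2 fold change -1.33) and 4 of 5 after volume depletion (median -1.47). None of the 5 was at 0. Intercalated cell markers were called lower in 3 of 5 after volume depletion (sum 387.4 to 643.6 CPM against 534.7 to 865.9). Thick ascending limb markers were lower in 2 of 3 (771.6 to 857.5 CPM against 1335 to 2328), distal convoluted tubule markers in 1 of 3 (151.7 to 212.7 against 259.2 to 457.8) and urothelial markers in 3 of 4 (13.1 to 16.2 against 24.6 to 26.1). Of 6 macrophage markers, 2 were called higher and 1 lower after volume depletion. The 4 fibroblast and pericyte markers were called higher after ischemia (92.5 to 249.9 CPM against 31.1 to 70.8), and 1 of them after volume depletion (81.3 to 118.4). The 4 fat markers were called lower after both injuries (sum 7.22 to 21.3 and 13.7 to 26.2 CPM against 36.1 to 99.98). Their part in the results of the members was not tested. In bulk RNA, fewer cells of a type and less RNA per cell cannot be told apart. Within series A, with 2 controls, 7 members were called after volume depletion, among them Hbegf at 3.81, Errfi1 at 3.33, Areg at 3.12 and Btc at -2.48, whereas Ereg, at 1.41 (adjusted p = 0.0590), was not. With both sexes in the fit and sex as a covariate, only Hbegf at 1.75 and Errfi1 at 2.15 were called of the 10.

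**Figure D2:**
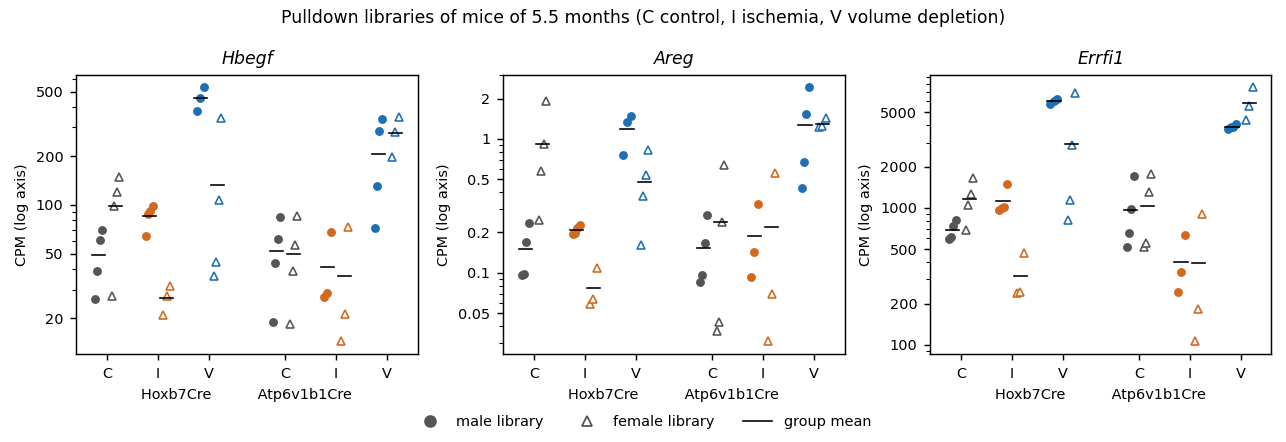
CPM (log axis) of Hbegf, Areg and Errfi1 in each pulldown library of mice of 5.5 months, by driver and treatment, with filled circles for males, open triangles for females and a line at the group mean. The 3 volume-depleted Hoxb7Cre males reach 5689 to 6237 CPM of Errfi1 while the 4 volume-depleted Hoxb7Cre females range from 821 to 6893.

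In Atp6v1b1Cre males the same 4 members rose after volume depletion, against 3.45% of all genes called higher. Errfi1 was at 651, 1704, 519 and 983 CPM in controls and at 3788, 3888, 4090 and 3893 after volume depletion (log2 fold change 2.04, standard error 0.30, adjusted p = 1.52e-04), without overlap. Hbegf was at 18.8, 61.2, 44.0 and 83.8 CPM against 72.2, 131, 338 and 285 (log2 fold change 2.00, standard error 0.44, adjusted p = 0.00406), and the lowest volume-depleted library fell within the controls. Areg rose from 4, 2, 2 and 8 to 19, 13, 24 and 42 counts (log2 fold change 2.90, standard error 0.52, adjusted p = 9.95e-04). Ereg was at 2, 6, 3 and 3 against 21, 19, 4 and 5 counts, with an overlap (log2 fold change 1.76, standard error 0.53, adjusted p = 0.0289). The call on Ereg was lost within either series, with both sexes in the fit, with the controls of 3 months, with a replicate block, and without volume-depleted replicate 1 or 2 or control replicate 6, 10 or 11, at 1.03 to 2.26 on the log2 scale.

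No member fell after volume depletion in this pool, against 1.7% of all genes called lower and 5.15% called in all. Btc was at 33.0, 37.3, 24.1 and 23.6 CPM in controls and 28.0, 43.7, 37.8 and 54.8 after volume depletion (log2 fold change 0.49, 95% interval -0.03 to 1.02). Hbegf, Areg and Errfi1 were called within series A (1.35, 1.99 and 1.71) and within series B (2.28, 3.39 and 2.41). The principal cell markers summed to 698.1 to 732 CPM in the controls and 605.6 to 826.6 after volume depletion with none of 5 called, and 2 of 5 intercalated cell markers were lower (sum 669.6 to 895 CPM against 441 to 592.7). Distal convoluted tubule markers were lower in 2 of 3 (357.5 to 694.6 CPM in controls against 132.8 to 224, median log2 fold change -1.68), fat markers in 2 of 4 (28.6 to 79.8 against 9.38 to 23.9) and proximal tubule markers in 1 of 5. The part of these markers in the results was not tested.

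Ischemia called no member in Hoxb7Cre males by edgeR, against 2.3% of all genes. At an unadjusted p under 0.05 there were 5 of 10, against 20.6% of all genes, and DESeq2 called 0 members and 595 genes. Errfi1 was at 1012, 963, 1483 and 1001 CPM after ischemia, each above the highest control at 822, but its log2 fold change of 0.70 (standard error 0.29, adjusted p = 0.153) did not pass. Btc was at 123, 67.1, 150.5 and 98.1 CPM, each below the lowest control at 155 (log2 fold change -0.84, standard error 0.26, adjusted p = 0.0601). Tgfa was at 17.7 to 22.3 CPM, also without overlap with its controls (log2 fold change -0.53, standard error 0.16, adjusted p = 0.0540). Hbegf, at a log2 fold change of 0.81 (95% interval -0.03 to 1.65), overlapped the controls. Within series A, Hbegf at 1.38 (adjusted p = 0.0141) and Btc at -1.02 (adjusted p = 0.0377) were called. Of 10 alternative analyses, this one included, 2 called Hbegf, 1 called Btc and 1 called Erbb4.

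In Atp6v1b1Cre males ischemia lowered 3 members, against 1.68% of all genes called lower and 2.82% called in all. Erbb3 was at 244, 279, 174 and 251 CPM in controls and 74.4, 89.5 and 137 after ischemia (log2 fold change -1.25, standard error 0.28, adjusted p = 0.00848). Egfr was at 240, 298, 186 and 252.5 CPM against 83.1, 121 and 146 (log2 fold change -1.07, standard error 0.25, adjusted p = 0.0118). For both receptors each ischemic library lay below all controls. Errfi1 was at 341, 241 and 631 CPM against 519 to 1704 in controls (log2 fold change -1.26, standard error 0.32, adjusted p = 0.0177), and the groups overlapped. Within series A all 3 were called, with Errfi1 at -2.02, Erbb3 at -1.69 and Egfr at -1.41. In series B, with 1 ischemic library, the values were -0.25, -0.63 and -0.59 and none was called.

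Leaving out 1 ischemic Atp6v1b1Cre library, replicate 1, ended all 3 calls, and leaving out control replicate 9 left Erbb3. With each of 22 libraries left out in turn, Erbb3 was called in 21 fits, Egfr in 20 and Errfi1 in 19. Proximal tubule markers were lower in sum after ischemia as well. They summed to 1654 to 3287 CPM in the controls and 735 to 1040 after ischemia, with 2 of 5 called lower (median log2 fold change -1.48), and none of the 5 was at 0. A marker each of endothelium (lower), thick ascending limb and fibroblasts (both higher) was also called. The part of these markers in the decrease was not tested.

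The injuries were then set against each other and the drivers against each other, in the same fit. In Hoxb7Cre males Hbegf (log2 difference -2.41, standard error 0.46), Areg (-2.47, 0.53) and Errfi1 (-2.42, 0.31) were lower after ischemia than after volume depletion, and Btc (1.48, 0.30) was higher, 4 members against 14.7% of all genes called. The summed level of the principal cell markers overlapped between these injuries, as given above, and 2 of 5 were called higher and 1 lower after ischemia. In Atp6v1b1Cre males Hbegf (-2.35, 0.50), Areg (-2.68, 0.57) and Errfi1 (-3.29, 0.35) were lower after ischemia, 3 members against 11.6% of all genes called. The ischemic and volume-depleted libraries were compared directly here, so the controls do not enter.

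The response to ischemia differed between the drivers for Errfi1 (Atp6v1b1Cre minus Hoxb7Cre, log2 difference -1.96, standard error 0.43, adjusted p = 0.00908) and Egfr (-1.31, 0.34, adjusted p = 0.0211), against 3.49% of all genes called. The response to volume depletion differed for Btc (2.82, 0.40, adjusted p = 5.76e-04) and Tgfa (1.18, 0.24, adjusted p = 0.00719), against 2.93% of all genes called. The rise in Errfi1 after volume depletion was 1.08 lower on the log2 scale in Atp6v1b1Cre (95% interval of the difference -1.90 to -0.26), which did not pass at an adjusted p of 0.151. With both sexes in the fit none of these 4 differences was called, and Errfi1 stood at -0.998 for ischemia and Btc at 1.05 for volume depletion. For Areg and Ereg the difference between drivers was -0.05 each, with intervals of -1.53 to 1.43 and -1.71 to 1.61.

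**Figure D3:**
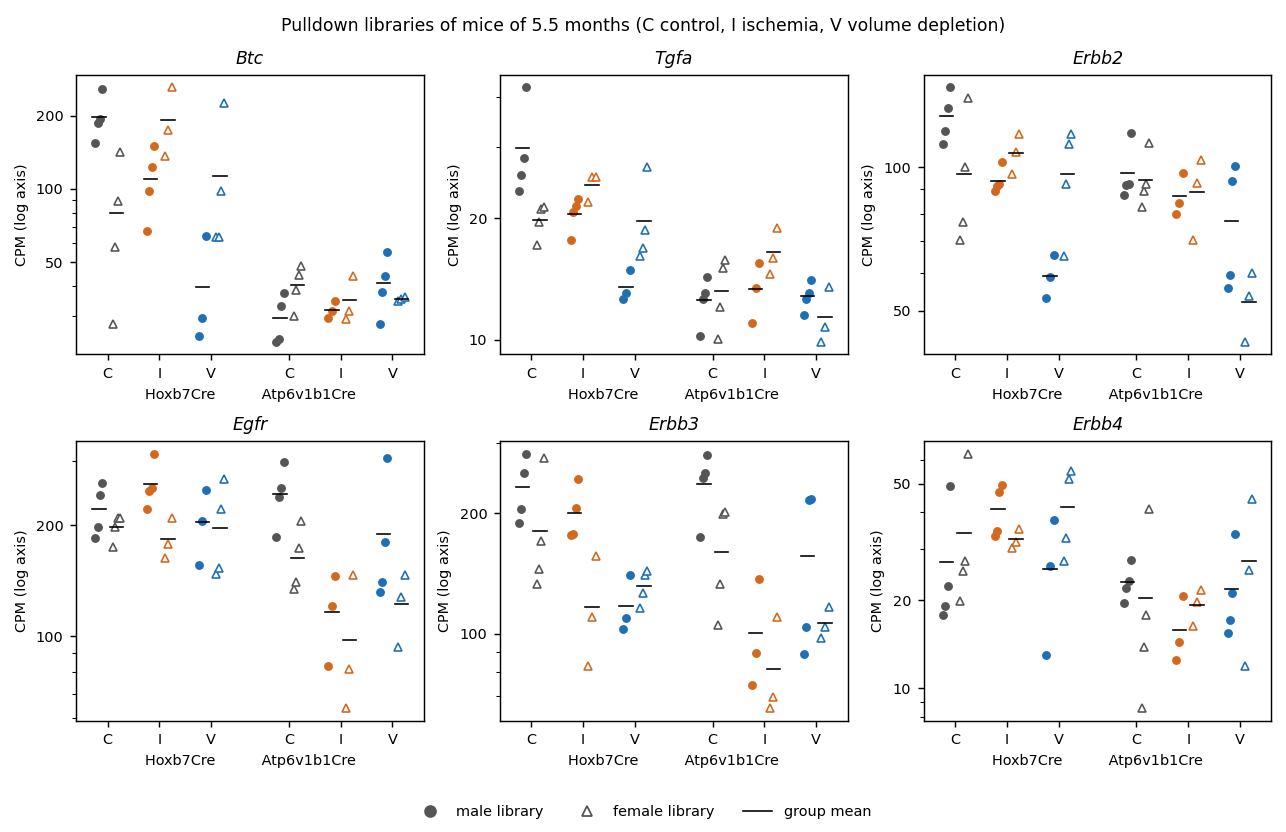
CPM (log axes of different range) of Btc, Tgfa, Erbb2, Egfr, Erbb3 and Erbb4 in each pulldown library of mice of 5.5 months, by driver and treatment, with filled circles for males, open triangles for females and a line at the group mean. In Hoxb7Cre males Btc, Tgfa and Erbb2 lie lowest after volume depletion, and in Atp6v1b1Cre males each ischemic library lies below all controls for Egfr and Erbb3.

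In Atp6v1b1Cre females, too, volume depletion raised Errfi1, Hbegf and Areg, against 6.3% of all genes called higher and 9.89% called in all. Errfi1 was at 1781, 551, 1305 and 521 CPM in controls and 7600, 5519 and 4403 after volume depletion (log2 fold change 2.49, standard error 0.67, adjusted p = 0.0162). Hbegf was at 56.6, 18.4, 85.6 and 39.1 CPM against 347, 198.5 and 283 (log2 fold change 2.47, standard error 0.68, adjusted p = 0.0172). Areg had 1, 1, 14 and 5 counts against 20, 26 and 19 (log2 fold change 2.46, standard error 0.80, adjusted p = 0.0376). None of these overlapped. Ereg was not called (0.66, 95% interval -0.58 to 1.89). Intercalated cell markers were called lower in 2 of 5 (819.7 to 1212 CPM in controls against 443.6 to 621). Also called lower were 1 of 5 principal cell and 1 of 4 fibroblast and pericyte markers. Of 4 urothelial markers 1 was called higher, and of 6 macrophage markers 1 higher and 1 lower. The part of these markers was not tested. The 3 calls on members were lost without volume-depleted replicate 3 or control replicate 8, where the lowest of the 3 log2 fold changes was 2.08. The call on Areg was also lost without control replicate 7 or 13 or volume-depleted replicate 4 or 5.

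After ischemia in Atp6v1b1Cre females no member was called by edgeR, against 1.15% of all genes, with 2 at an unadjusted p under 0.05 (20.1% of all genes) and 1 by DESeq2, which called 485 genes in place of 244. Erbb3 stood at -0.99 (standard error 0.28, adjusted p = 0.0547), Egfr at -0.77 (adjusted p = 0.102) and Errfi1 at -1.42 (adjusted p = 0.253). Errfi1 was at 181 and 106 CPM in the ischemic libraries of series A and at 902 in that of series B, replicate 6, and without replicate 6 all 3 genes were called.

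In Hoxb7Cre females no member was called after volume depletion, against 0.0992% of all genes. Errfi1 was at 821, 2863, 1136 and 6893 CPM against 685, 1253, 1652 and 1051 in controls, so that 1 library reached the level of the males and 2 lay among the controls. Hbegf was at 44.3, 107, 36.3 and 344 CPM against 27.2, 148, 119.9 and 98.1, with the same library, replicate 5, the highest. At an unadjusted p under 0.05 there was 1, Errfi1, at a log2 fold change of 1.33 (95% interval 0.12 to 2.55), against 7.91% of all genes, and DESeq2 called 0 members and 79 genes.

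After ischemia in Hoxb7Cre females Errfi1 was at 465, 242 and 239 CPM, each below the lowest control (log2 fold change -1.87, standard error 0.70, adjusted p = 0.115). Areg had 1, 1 and 2 counts against 6, 51, 21 and 15 (log2 fold change -3.46, standard error 1.04, adjusted p = 0.0634). Btc was at 137, 175 and 262 CPM against 142.5, 27.8, 57.5 and 89.6 (log2 fold change 1.28, standard error 0.42, adjusted p = 0.0805). No member was called by edgeR, against 2.08% of all genes, with 5 at an unadjusted p under 0.05 (23.7% of all genes) and 2, Areg and Btc, by DESeq2, which called 1070 genes in place of 440. Without control replicate 1, the only female Hoxb7Cre control of series A, edgeR called Hbegf, Areg and Btc. Against that control alone, within series A, Hbegf stood at -0.04 after ischemia and 2.27 after volume depletion and Btc at 0.42 and -0.35. With an arm of 1 library, that fit called 9 and 4 of all 21175 genes, so these are values without a usable test. Thick ascending limb markers summed to 948.7 to 2328 CPM in the female controls and 3038 to 4135 after ischemia, with 1 of 3 called higher. Also called were 2 of 6 macrophage and 1 of 4 fibroblast and pericyte markers, all higher, and 1 of 4 fat markers, lower. The part of these markers in the results was not tested.

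**Figure D4:**
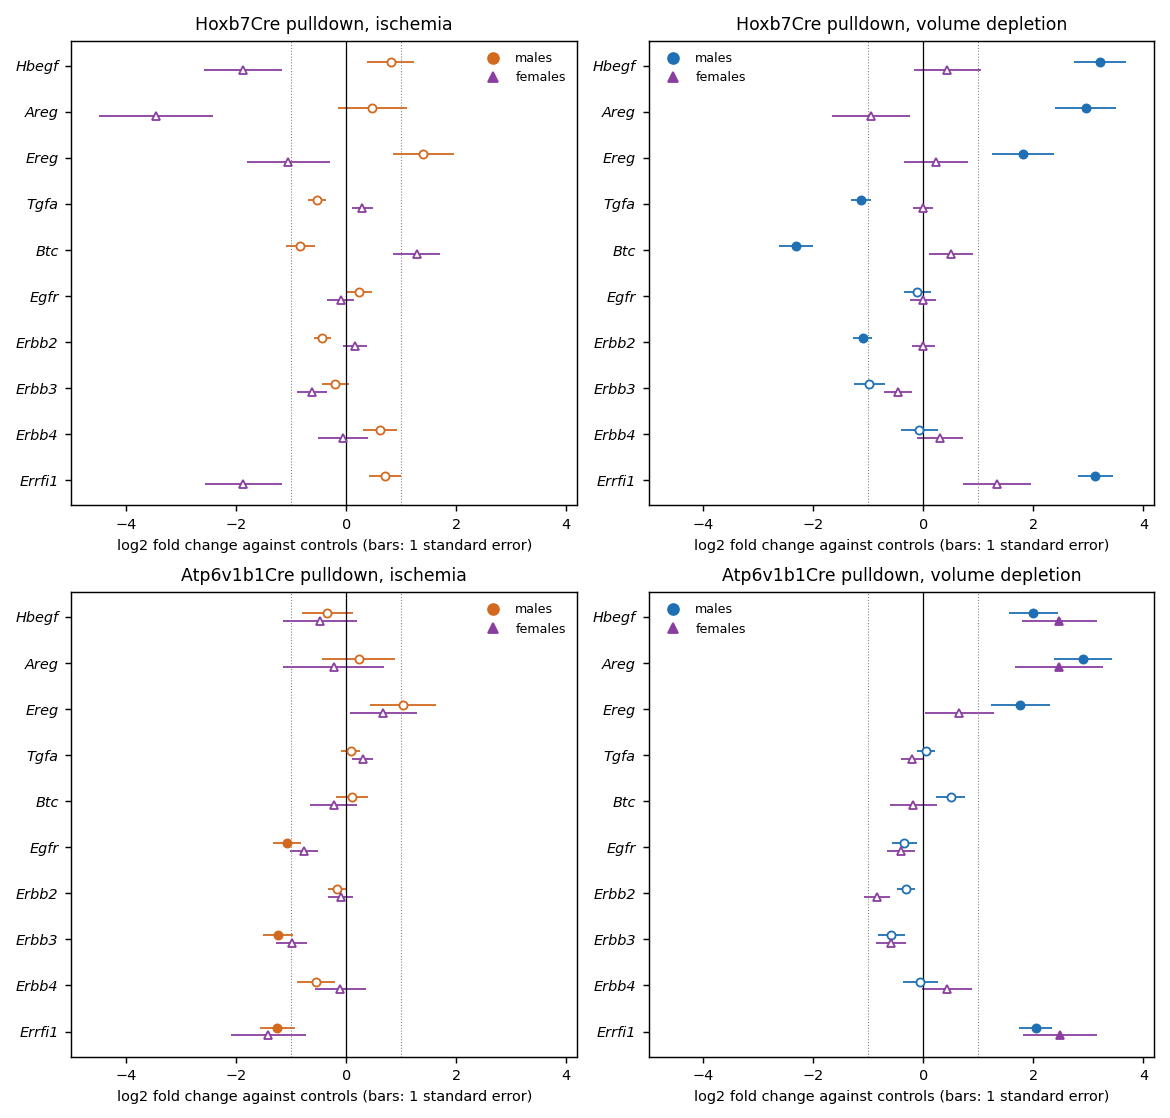
Log2 fold changes of the 10 members against controls of the same sex and driver, with bars of 1 standard error and dotted lines at a log2 fold change of 1 in each direction; filled symbols are called and open symbols are not. Responses of males and females lie close together in the Atp6v1b1Cre pulldown and apart in the Hoxb7Cre pulldown for Hbegf, Areg, Btc and Errfi1, where the test of the difference called all 4 for ischemia and all but Errfi1 for volume depletion.

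The difference between the sexes was tested itself, as the female minus the male response. In the Hoxb7Cre pulldown the responses to volume depletion differed for Areg (log2 difference -3.92, standard error 0.95, adjusted p = 0.00698), Hbegf (-2.79, 0.84, adjusted p = 0.0219), Btc (2.82, 0.54, adjusted p = 0.00226), Tgfa (1.12, 0.25, adjusted p = 0.00442) and Erbb2 (1.10, 0.28, adjusted p = 0.00879). These were 5 of 10 members, against 10.8% of all genes called. For Errfi1 the difference after volume depletion was not called (-1.80, 95% interval -3.25 to -0.34, adjusted p = 0.0900). The responses to ischemia differed for Areg (-3.96, 1.25, adjusted p = 0.0365), Hbegf (-2.70, 0.86, adjusted p = 0.0389), Errfi1 (-2.59, 0.76, adjusted p = 0.0270) and Btc (2.11, 0.52, adjusted p = 0.0119), against 6.98% of all genes called. The 2 comparisons share their controls. In the female controls of 5.5 months Hbegf was at 98.1 to 148 CPM in series B and C and at 27.2 in series A, overlapping the male controls at 26.1 to 69.9. Btc, at 27.8 to 142.5 CPM against 155 to 257, did not overlap between the control groups, nor did the sum of the principal cell markers, at 1045 to 2345 CPM against 2608 to 3322 in males. The controls of the sexes were not tested against each other.

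Within series A there were 1 female and 2 male controls, and that fit called 0 of all 21175 genes for ischemia and 5 for volume depletion, so it gives values without a usable test. For volume depletion Hbegf was at -1.53, Areg at -2.22 and Btc at 2.11, and for ischemia Errfi1 was at -2.01, each in the same direction as over all series. Series and control group cannot be told apart further, since all treated Hoxb7Cre libraries are in series A. Several of the calls between the sexes over all series rested on single libraries. With each of 22 libraries left out in turn, the differences after ischemia were still called in 11 fits for Areg, 11 for Hbegf, 17 for Errfi1 and 21 for Btc. The call on Areg was lost without any 1 of the 7 ischemic libraries or control replicate 3, 4, 6 or 9, that on Hbegf without ischemic replicate 1 to 6 or control replicate 2, 3, 6, 9 or 10, that on Errfi1 without ischemic replicate 2, 3 or 6 or control replicate 3 or 9, and all 4 without the female ischemic replicate 3. For volume depletion Areg and Btc were called in all 22 fits, Tgfa and Erbb2 in 20 and Hbegf in 17. Hbegf was lost without volume-depleted replicate 1, 3 or 7 or control replicate 3 or 6, Tgfa without volume-depleted replicate 1 or control replicate 3, and Erbb2 without volume-depleted replicate 1 or control replicate 9. In the Atp6v1b1Cre pulldown no difference between the sexes was called, of the members or of all genes (0% for ischemia and 0% for volume depletion). No member had an unadjusted p under 0.05 there, against 3.19% and 8.29% of all genes, and DESeq2 called 0 members and 1 and 32 genes. The intervals were wide, for Errfi1 from -0.98 to 1.92 in the response to volume depletion.

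Other genes of the pathway were counted over a list of 35. After volume depletion in Hoxb7Cre males 6 rose, against 9.61% of all genes called higher, and 2 fell, against 6.81% called lower. The 16 adaptors and kinases of the list, among them Shc1 and Grb2, held no call after either injury in either driver and sex. Some passed the adjusted p but not the fold threshold, as given below for ischemia. In this comparison 5 were at an unadjusted p under 0.05 (43.5% of all genes) and 2 passed the adjusted p. Among genes of ligand release, Rhbdf2 (log2 fold change 2.75, standard error 0.33, adjusted p = 1.61e-06) and Rhbdf1 (1.39, 0.20, adjusted p = 1.21e-05) rose, which encode the iRhoms that carry the protease ADAM17 to the cell surface. Adam10 fell (-1.19, 0.14, adjusted p = 1.87e-06), and Adam17 was at -0.50 (adjusted p = 0.00176). Another 9 genes were listed as other negative regulators, with earlier results of these data known. Of these, 4 rose (9.61% of all genes called higher), namely Lrig1 (1.84, 0.22), Lrig3 (1.83, 0.21), Cblb (1.11, 0.20) and Lrig2 (1.00, 0.18). The listing is by family and was not tested for each gene. LRIG1 and the ubiquitin ligase CBL-B promote the loss of activated receptors.

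In Atp6v1b1Cre males 3 of the 35 rose after volume depletion, against 3.45% of all genes called higher, and none fell. They were Rhbdf2 (1.41, 0.30, adjusted p = 0.00330), Lrig3 (1.07, 0.19, adjusted p = 0.00101) and Lrig1 (1.00, 0.20, adjusted p = 0.00237). In Atp6v1b1Cre females 5 rose, against 6.3% of all genes called higher, among them Rhbdf2 (2.02, 0.54, adjusted p = 0.0155) and Lrig3 (1.67, 0.39, adjusted p = 0.00754), and Socs5 fell (-1.24, 0.17, adjusted p = 7.65e-04), against 3.59% called lower. The median over the 35 genes was 0.07 after volume depletion in Hoxb7Cre males and 0.03 in Atp6v1b1Cre males, beside 0 over all genes.

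Egf itself, a product of the distal nephron, fell in Hoxb7Cre males after ischemia (-1.56, 0.31, adjusted p = 0.00568) and volume depletion (-1.25, 0.34, adjusted p = 0.00650) and in Atp6v1b1Cre males after ischemia (-1.46, 0.35, adjusted p = 0.0119). Nrg1, a ligand of Erbb3 and Erbb4, rose after ischemia in Hoxb7Cre males (1.09, 0.32, adjusted p = 0.0456). These were the 2 genes of the 35 called there, against 2.3% of all genes, and Egf the 1 called after ischemia in Atp6v1b1Cre males, against 2.82%. In Hoxb7Cre females Lrig3 (-1.54, 0.41), Lrig2 (-1.23, 0.26) and Cblb (-1.07, 0.28) fell after ischemia, against 1.29% of all genes called lower. Of the 16 adaptors and kinases, 7 in Atp6v1b1Cre males were at an unadjusted p under 0.05 after ischemia (23.9% of all genes). There were 6 in Atp6v1b1Cre females (20.1%), 5 in Hoxb7Cre males (20.6%) and 2 in Hoxb7Cre females (23.7%). The adjusted p was passed after ischemia by 4 in Atp6v1b1Cre males, 1 higher and 3 lower. It was passed by 1 each in Hoxb7Cre males and Atp6v1b1Cre females, both lower.

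Across the 22 male pulldown libraries the genes most like Errfi1 were sought by Pearson's r of log2 CPM, among 12738 genes with a mean of at least 50 counts. They were D8Ertd82e (r = 0.97), Maml1 (0.97), Lrig3 (0.97), Foxo1 (0.97) and Brd2 (0.96). Over the 21 female libraries their r with Errfi1 was 0.88, 0.94, 0.96, 0.96 and 0.92. Those most like Hbegf were Ccnl1 (0.98), Epha2 (0.98), Trib1 (0.97), Tmem39a (0.97) and Nfkbiz (0.97), with 0.98, 0.97, 0.96, 0.96 and 0.98 in females. Errfi1 and Hbegf were correlated at 0.89 in males and 0.92 in females. By r in males, Hbegf ranked only 358 of 12738 genes in likeness to Errfi1, and Errfi1 488 in likeness to Hbegf. The points share treatment groups and library depth, and the values describe these libraries only.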

How the data were processed

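The authors deposited raw read counts per gene for 69 libraries. They trimmed reads with CASAVA 1.8.2 and Trimmomatic 0.36, aligned them to mm10 with STAR 2.5.3a and counted them with HTSeq 0.6.1p2. The annotation behind the gene symbols is not given in the sources used here. The analysis used edgeR 4.0.16 under R 4.3.3. A gene entered the tests with 2 or more counts summed over all libraries (21175 of 24411). After TMM scaling, fold changes were taken through the quasi-likelihood test with Benjamini-Hochberg adjustment, in fits of the 22 male, the 21 female and all 43 pulldown libraries of mice of 5.5 months, and of the 42 control libraries with sex as a covariate. Many or all of the control mice may have given both a pulldown and a total RNA library, which the fit does not model. CPM are on 1 TMM scale over the 69 libraries, and log2 CPM use a prior count of 2. Intervals are 1.96 standard errors to each side. Overlap between groups is described for single genes, and its share over all genes was not counted. Levels of 3 counts or fewer are taken as at the floor, and precision from depth covers counting error only. Here depth ranged from 12618062 to 30305464 counts, and the common dispersion was 0.0444 in males and 0.0782 in females. The script was tested on simulated data.

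The 10 members were all named, and a list of 35 other pathway genes was counted, with any of its genes open to being named; 1 further gene of the list is not reported here. The 5 genes most like Errfi1 and Hbegf were taken by r. The members, lists and tests were chosen with earlier results of these data known. Alternatives were DESeq2 1.42.0, DESeq2's size factors, filterByExpr, no filter, no fold threshold, 25 males with the controls of 3 months, a joint fit of both sexes, a replicate block, the series as a covariate, each library left out in turn and, for controls, 1 sex or age. Fits within series and with total RNA of the same genotype were chosen after seeing the data. Same-numbered libraries did not deviate together (mean r of -0.09 over 8 pairs in males and 0.03 over 6 in females), so that the numbers were not taken as pairs. For the difference between the sexes, only libraries of the driver compared were left out. Figures were drawn with matplotlib 3.10.9.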

Additional observations from a re-analysis of the deposited data

Results flagged for a closer look

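In 90 sets of 4 to 10 libraries, each a member in a group, 7 libraries stood apart from the rest of their group by Dixon's criterion, and chance alone gives about 1 in 20. Errfi1 was at 1483 CPM in ischemic male Hoxb7Cre replicate 6 against 962.6 to 1012 in the others. Erbb4 was at 48.88 CPM in control male Hoxb7Cre replicate 2 (17.73 to 22.28 in the others) and at 63.32 CPM in control female Hoxb7Cre replicate 1 (19.84 to 27.27). Erbb2 was at 117.9 CPM in control male Atp6v1b1Cre replicate 6 (87.61 to 92.18). Among all 10 Hoxb7Cre controls, Areg was at 1.906 CPM in replicate 6 (0.09688 to 0.9218), Ereg at 0.6172 CPM in replicate 10 (0.08213 to 0.3512) and Tgfa at 42.24 CPM in replicate 3 (17.12 to 28.25).

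The response differed between groups, by the test of the difference itself, for 13 pairs of member and contrast. Between the drivers in males (Atp6v1b1Cre minus Hoxb7Cre, log2 scale) these were Egfr at -1.31 and Errfi1 at -1.96 for ischemia, and Tgfa at 1.18 and Btc at 2.82 for volume depletion. Between the sexes in the Hoxb7Cre pulldown (female minus male) these were Hbegf at -2.70, Areg at -3.96, Btc at 2.11 and Errfi1 at -2.59 for ischemia. For volume depletion they were Hbegf at -2.79, Areg at -3.92, Tgfa at 1.12, Btc at 2.82 and Erbb2 at 1.10. Within series A, with 1 female control, the same fit called 0 of all 21175 genes for ischemia and 5 for volume depletion, so the 9 differences between the sexes have no usable test there.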

How the results depend on the processing

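Of the values of members called, 1074 kept their direction and call under an alternative and 117 kept the direction but lost the call; none reversed. Of those not called, 65 gained a call and 1 reversed, Egfr between ischemia and volume depletion in Atp6v1b1Cre males, at 0.095 (adjusted p = 0.84) within series B against -0.73. A further 185 values not called changed sign with neither value past the adjusted p, as Erbb3 in the same comparison, at 0.50 within series B against -0.66. Except where a value shows it, the cause of these changes was not tested. DESeq2 called 2 members after ischemia in Hoxb7Cre females and 1 in Atp6v1b1Cre females, against 0 each. With no fold threshold, 7 members in place of 4 were called between the injuries in Hoxb7Cre males, 8 in place of 5 in the Hoxb7Cre and 7 in place of 2 in the Atp6v1b1Cre pulldown against total RNA, and 2 in place of 1 between the pulldowns. With both sexes in the fit, 2 in place of 7 were called after volume depletion in Hoxb7Cre males, and 0 in place of 2 between the drivers for either injury. With the series as a covariate 1 in place of 0 was called after ischemia in Hoxb7Cre males. Within series A the counts were 2 in place of 0 there, 6 in place of 3 between the injuries in Atp6v1b1Cre males, 4 and 5 in place of 2 between the drivers for ischemia and volume depletion, 2 in place of 0 after ischemia in Atp6v1b1Cre females, and 0 in place of 4 and 5 between the sexes in Hoxb7Cre, where 1 female control was left and 0 and 5 of all 21175 genes were called. Within series B 0 in place of 3 were called after ischemia in Atp6v1b1Cre males. In the Atp6v1b1Cre pulldown against total RNA 1 in place of 2 was called with filterByExpr, no filter, males only, females only, without mice of 3 months and with total RNA of the same genotype. Among males 3 in place of 5 were called in the Hoxb7Cre pulldown, and between the pulldowns 2 among males and 0 among females, in place of 1.

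With a replicate block, 1 in place of 0 was called after ischemia in Hoxb7Cre males, 0 in place of 3 after ischemia in Atp6v1b1Cre males, 0 in place of 2 between the drivers for either injury, and 0 in place of 3 after volume depletion in Atp6v1b1Cre females. Over all genes the block left 0 calls after ischemia in Atp6v1b1Cre males, 0 and 53 between the drivers for ischemia and volume depletion, and 0 after volume depletion in Atp6v1b1Cre females, in place of 598, 738, 621 and 2095. The numbers do not pair the libraries: same-numbered libraries deviated with a mean r of -0.09 (-0.42 to 0.20, 8 pairs) in males and 0.03 (-0.21 to 0.35, 6 pairs) in females.

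With each library left out in turn, the counts after ischemia were 0 to 1 in Hoxb7Cre males, 0 to 3 in Atp6v1b1Cre males and 0 to 3 in females of either driver. After volume depletion they were 6 to 8 and 3 to 4 in Hoxb7Cre and Atp6v1b1Cre males and 0 to 0 and 0 to 3 in females. Between the injuries they were 4 to 5 and 3 to 4, and between the drivers 1 to 3 for ischemia and 1 to 2 for volume depletion. Between the sexes in Hoxb7Cre they were 0 to 5 for ischemia and 2 to 6 for volume depletion, and in Atp6v1b1Cre 0 to 0 for either. Depth limits Areg and Ereg, at 3 counts or fewer in 14 of 21 total RNA libraries each.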
